A study of Mus musculus with 6 samples.

Results

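The regulators of G-protein signalling (RGS) examined here were 10 mouse genes, *Rgs2*, *Rgs3*, *Rgs4*, *Rgs5*, *Rgs10*, *Rgs12*, *Rgs14*, *Rgs16*, *Rgs17* and *Rgs19*. They were taken by gene symbol from a table of 24016 genes, and each had 1 row. Their mRNA was measured by RNA-seq in cells of an MC3T3-E1 subclone, a clonal mouse preosteoblast line of wild-type genotype, so that all libraries came from 1 clone. Cells of both groups were differentiated for 6 days with β-glycerophosphate (10 mM) and ascorbic acid (50 μg/ml). The 3 cultures of one group then received vehicle and the 3 of the other received 100 nM corticosterone, the main glucocorticoid of rodents, for 24 h, with 10 nM calcitriol named in the treatment protocol of all 6. The labels give the passage as 4 to 10 in one field and as 6 to 12 in another, for every sample alike. The study calls the cultures biological replicates.

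RGS proteins shorten signalling by G-protein-coupled receptors. A receptor loads GTP onto a G alpha subunit, and an RGS domain speeds the hydrolysis of that GTP, which returns the subunit to its resting state. In osteoblasts, receptors for parathyroid hormone, prostaglandins, endothelin and lysophospholipids signal through these subunits. The R4 subfamily (*Rgs2*, *Rgs3*, *Rgs4*, *Rgs5*, *Rgs16*) holds mostly small proteins that act on Gi and Gq subunits, and RGS2 is known for its preference for Gq. The RZ subfamily (*Rgs17*, *Rgs19*) acts on Gi-class subunits, Gz included. Of the R12 subfamily (*Rgs10*, *Rgs12*, *Rgs14*), RGS10 is a small protein, while RGS12 and RGS14 also bind Ras-type GTPases and carry a GoLoco motif that holds Gi alpha in its GDP form.

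After corticosterone, *Rgs3* rose 1.27-fold and *Rgs12* fell to 0.773 of its vehicle level, and the other 8 members were not called (limma, adjusted p under 0.05). Thus 1 of 10 members rose, where 8.49% of all genes did, and 1 of 10 fell, where 8.2% of all genes did. In all, 2040 genes were higher and 1970 lower, a split that became 1349 and 2595 with upper-quartile scaling. The study's threshold was an adjusted p under 0.05 with an absolute log2 fold change over 1. In limma, 2.78% of genes passed it (331 higher, 337 lower). These counts depended on the tool. DESeq2 put 269 higher and 245 lower genes past it. With its filter edgeR put 283 and 271 past it, and without the filter 342 and 350. It was passed by 0 members in limma, edgeR and DESeq2. Only *Rgs3* and *Rgs12* had an unadjusted p under 0.05 among the members, a count of 2. A gene that was not called is not thereby shown to be unchanged, and the intervals below give the sizes its data allow. The median log2 fold change was -0.07 over the members and -0.01 over all genes tested. The members' median counts all 10, including 4 barely measured genes with means under 20.

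The members fell into well-measured and barely measured genes. A mean of at least 100 normalized counts (read counts divided by 1 size factor per library) was reached by 6 members, *Rgs3*, *Rgs4*, *Rgs10*, *Rgs12*, *Rgs17* and *Rgs19*, and 2 of these 6 were called, against 32.6% of the 10558 genes at that level. The other 4 members, *Rgs2*, *Rgs5*, *Rgs14* and *Rgs16*, had means under 20. Libraries held 19076586 to 25638645 reads on genes with vehicle and 16020401 to 18992332 with corticosterone, so every corticosterone library was the shallower, and 3 reads, the floor used here, equalled 2.32 to 3.84 normalized counts. Treatments were separated along the first principal component, which held 61.4% of the variance.

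**Figure D1:**
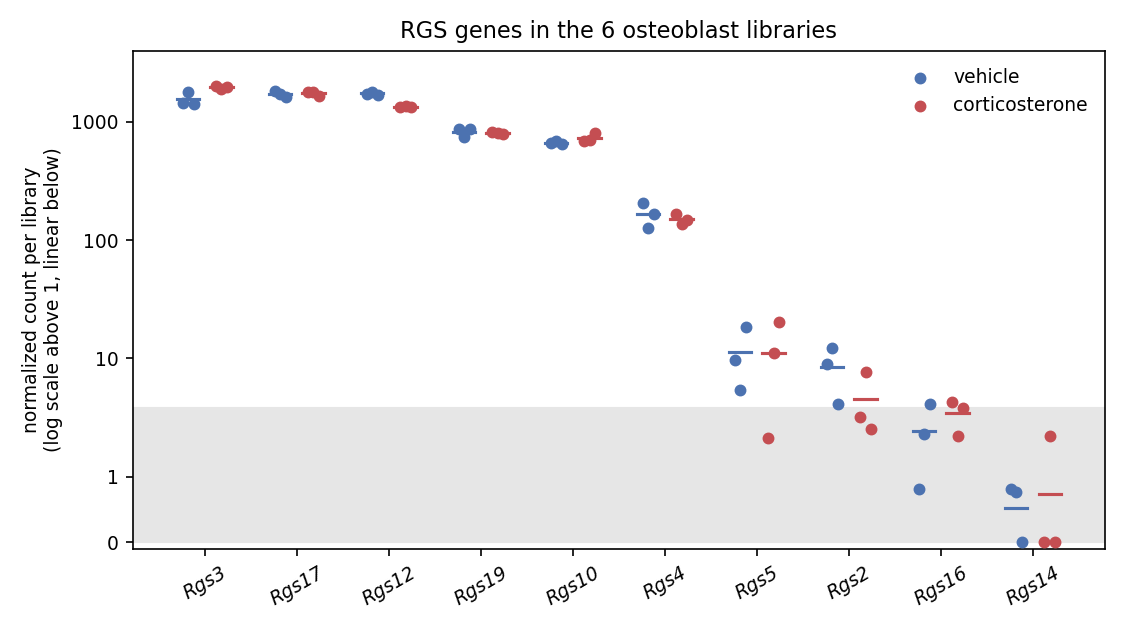
Normalized counts (log axis above 1, linear below) of the 10 RGS genes in the 3 vehicle (blue) and 3 corticosterone (red) libraries, with 1 point per library, short lines at the group means and a shaded band up to the highest floor of 3 reads (3.84). *Rgs3*, *Rgs10*, *Rgs12*, *Rgs17* and *Rgs19* lie between 651 and 1999, *Rgs4* between 126 and 205, and the other 4 at or below 20.5.

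Since both called members have 2 annotated promoters, all 4 promoter windows are printed to show the sequence next to each start. They are RefSeq windows of GRCm38.p6 on the plus strand, from 250 bases before to 50 bases after the start, in which capitals mark 2 short motifs searched on both strands: AGAACA, whose reverse complement is TGTTCT, which is 1 arm of a glucocorticoid response element, and TGACG, whose reverse complement is CGTCA, the core of a cAMP response element. Positions are counted from the start site.
Rgs3, upstream start, chr4:62559597-62559896: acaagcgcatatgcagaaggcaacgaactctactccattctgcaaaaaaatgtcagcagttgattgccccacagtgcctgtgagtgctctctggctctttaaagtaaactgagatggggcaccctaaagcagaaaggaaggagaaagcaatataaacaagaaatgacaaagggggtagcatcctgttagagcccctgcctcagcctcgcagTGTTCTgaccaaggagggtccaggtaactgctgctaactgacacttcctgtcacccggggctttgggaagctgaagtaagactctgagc
Rgs3, downstream start, chr4:62619422-62619721: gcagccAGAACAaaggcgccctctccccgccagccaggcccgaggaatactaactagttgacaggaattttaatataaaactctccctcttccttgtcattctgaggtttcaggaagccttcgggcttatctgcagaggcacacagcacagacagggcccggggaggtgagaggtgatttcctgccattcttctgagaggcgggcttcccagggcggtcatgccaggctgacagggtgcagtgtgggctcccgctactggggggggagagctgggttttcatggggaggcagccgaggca
Rgs12, upstream start, chr5:34949198-34949497: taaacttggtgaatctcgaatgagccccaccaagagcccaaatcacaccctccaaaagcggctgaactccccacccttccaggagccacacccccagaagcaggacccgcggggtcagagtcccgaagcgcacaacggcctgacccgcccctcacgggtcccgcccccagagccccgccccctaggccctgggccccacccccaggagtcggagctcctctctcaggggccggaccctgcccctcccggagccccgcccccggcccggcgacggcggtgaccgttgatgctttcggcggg
Rgs12, downstream start, chr5:34998828-34999127: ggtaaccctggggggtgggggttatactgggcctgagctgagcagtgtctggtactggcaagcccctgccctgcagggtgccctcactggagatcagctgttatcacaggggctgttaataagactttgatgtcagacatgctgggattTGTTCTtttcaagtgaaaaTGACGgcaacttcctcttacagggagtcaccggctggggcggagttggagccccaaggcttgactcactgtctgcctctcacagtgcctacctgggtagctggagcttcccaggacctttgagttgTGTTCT
The upstream window of *Rgs3* held TGTTCT at -39, and its downstream window held AGAACA at -244. The upstream window of *Rgs12*, with a GC content of 70.3%, held neither motif, whereas the downstream window held TGTTCT at -101 and 44 and TGACG at -82. The reads were not assigned to a start, so the values below are sums over all starts of a gene.

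Across the family, 13 windows matched 9 of the 10 members, *Rgs14* being the one without a window. The arm of the glucocorticoid response element was found in 4 of the 13, and in 19.0% of the 32851 promoter windows in the RefSeq table. These 4 were both windows of *Rgs3*, 1 of *Rgs12* and 1 of *Rgs19*, so the motif occurred beside a gene that rose, one that fell and one that was not called. The full palindrome GNACANNNTGTNC was in 0 of 13 and in 0.475% of all windows. The core of the cAMP response element was in 3 of 13, those of *Rgs2*, *Rgs4* and *Rgs12*, and in 20.8% of all windows. A match is a description of the letters and not a binding site.

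*Rgs3* (ENSMUSG00000059810, plus strand of chromosome 4, 62559847 to 62704001) encodes the R4 member with long splice forms besides a short one. Its normalized counts were 1460, 1788 and 1408 with vehicle and 1999, 1896 and 1978 with corticosterone. All 3 treated libraries lay above all 3 vehicle libraries, and the second vehicle library came closest to them. Means were 1552 ± 206 and 1958 ± 54.1 (SD, n = 3 each), from 1361 to 2316 reads per library. The log2 fold change was 0.34 (SE 0.07, 95% interval 0.19 to 0.49) with a limma adjusted p of 0.0024, and the two-sided exact permutation test gave p = 0.1, the smallest that 3 against 3 allows. The call was lost without the third vehicle library (log2 fold change 0.28, limma adjusted p = 0.086), without the third corticosterone library (0.34, limma adjusted p = 0.065) and in limma without a variance trend (limma adjusted p = 0.19). Of the 31-base words in its exons, 12.5% also occur in other genes, most of all in the processed pseudogene *Gm5763*, which had only 17.0 to 26.9 normalized counts and a log2 fold change of 0.09 (limma adjusted p = 0.91).

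*Rgs12* (ENSMUSG00000029101, plus strand of chromosome 5, 34949445 to 35039644) encodes the largest R12 scaffold, with PDZ and phosphotyrosine-binding domains besides the RGS domain. Its normalized counts were 1732, 1804 and 1688 with vehicle and 1325, 1363 and 1348 with corticosterone. Every treated library lay below every vehicle library, and the gap between the groups was wider than the spread within either. Means were 1741 ± 58.4 and 1346 ± 18.9 (SD, n = 3 each), from 1054 to 2337 reads. The log2 fold change was -0.37 (SE 0.05, 95% interval -0.47 to -0.27) with a limma adjusted p of 2.9e-05, while the exact permutation p was again 0.1. An antisense gene, *Gm43791*, covers 5.5% of its exon bases and has no row of its own in the table. It is not stated whether counting used the strand, so any reads from *Gm43791* there cannot be told apart from those of *Rgs12*. Thinning all libraries to the size of the smallest gave log2 fold changes of -0.38 for *Rgs12* and 0.36 for *Rgs3*, both still called.

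*Rgs3* and *Rgs12* were the 2 members whose groups did not overlap, a pattern found in 29.6% of all genes. Both changes were larger than the median absolute log2 fold change of 0.13 among the 10558 genes with a mean of at least 100, called or not. Since these 2 genes were singled out by their calls, this describes their size only. The ratio of *Rgs12* to *Rgs3* normalized counts, chosen after the values were seen and given as a description, was 1.19, 1.01 and 1.20 with vehicle and 0.663, 0.719 and 0.682 with corticosterone. In bulk RNA, fewer cells that express a gene and less of its RNA per cell cannot be told apart.

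**Figure D2:**
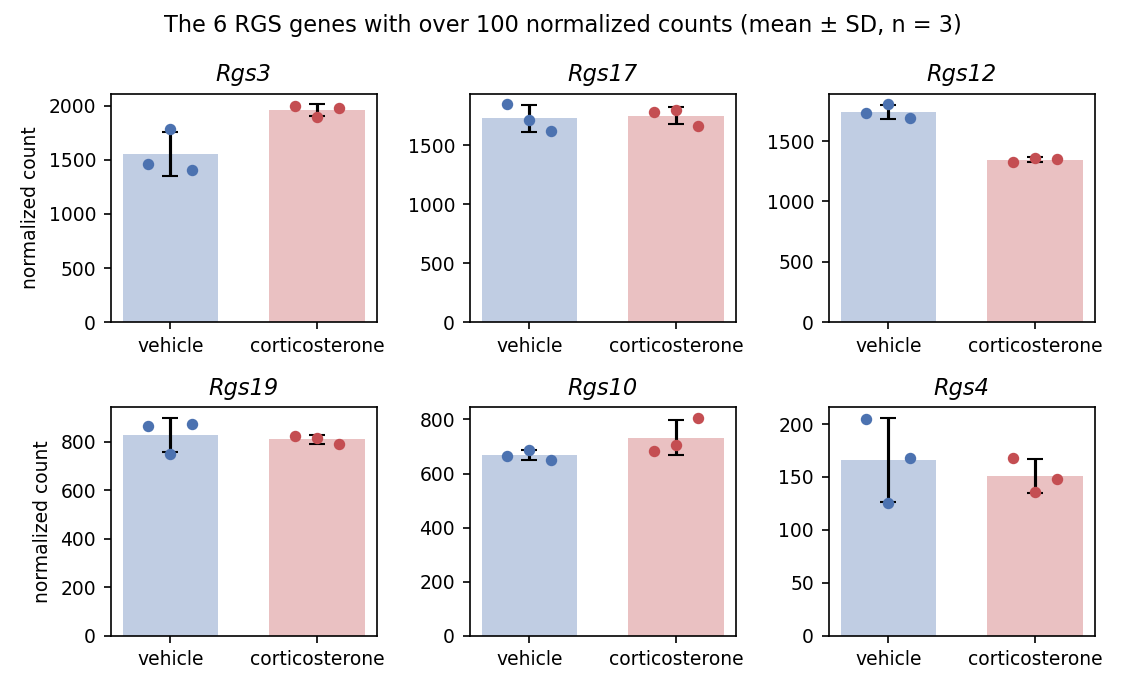
Normalized counts (linear axes) in each library of the 6 RGS genes with a mean of at least 100; bars are group means, error bars are SD (n = 3) and points are libraries. *Rgs3* and *Rgs12* are the genes without overlap between the groups, while *Rgs4*, *Rgs10*, *Rgs17* and *Rgs19* overlap.

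*Rgs17*, the RZ member also called RGSZ2 (minus strand of chromosome 10, 5825663 to 5922400), had 1844, 1710 and 1621 normalized counts with vehicle and 1777, 1798 and 1664 with corticosterone. The groups covered nearly the same range, with a log2 fold change of 0.02 (95% interval -0.10 to 0.14, limma adjusted p = 0.89). *Rgs19*, whose protein was first described as the Gi alpha partner GAIP (minus strand of chromosome 2, 181688419 to 181693977), had 865, 749 and 872 with vehicle and 824, 814 and 789 with corticosterone. Here the treated values all lay inside the vehicle range, and the log2 fold change was -0.03 (95% interval -0.17 to 0.11, limma adjusted p = 0.83). For these 2 genes the intervals leave room for changes of at most 0.17 on the log2 scale in either direction.

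*Rgs10*, a regulator of Gi subunits best known from immune cells and microglia (minus strand of chromosome 7, 128373621 to 128418758), had 667, 686 and 651 normalized counts with vehicle and 685, 706 and 806 with corticosterone. The third treated library stood above the rest, and the other treated values were close to the vehicle ones. Its log2 fold change was 0.13 (95% interval -0.02 to 0.28, limma adjusted p = 0.26), and 0.059 without the third treated library. *Rgs4*, an inhibitor of Gi and Gq signalling studied mostly in brain and heart (minus strand of chromosome 1, 169741477 to 169747642), had 205, 126 and 168 with vehicle and 168, 136 and 148 with corticosterone. The vehicle libraries alone spanned the whole treated range, and the log2 fold change was -0.12 (95% interval -0.45 to 0.21, limma adjusted p = 0.70).

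*Rgs2*, known in osteoblasts as a gene induced by parathyroid hormone, lay close to the limit of detection (minus strand of chromosome 1, 143999338 to 144004161). Its normalized counts were 8.92, 12.3 and 4.14 with vehicle and 3.21, 7.73 and 2.56 with corticosterone, from 2 to 16 reads. The groups overlapped, and the log2 fold change of -0.93 had a 95% interval of -2.43 to 0.57 (limma adjusted p = 0.47). No difference was detected, and the interval leaves room for a change in either direction. *Rgs5*, a widely used marker of pericytes (plus strand of chromosome 1, 169655501 to 169695813), had 9.73, 5.40 and 18.6 with vehicle and 2.14, 11.0 and 20.5 with corticosterone, from 2 to 18 reads. Both groups were scattered over the same range, with a log2 fold change of -0.33 (95% interval -1.90 to 1.24, limma adjusted p = 0.85).

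*Rgs16* and *Rgs14* averaged at most 3 reads per library in each group, and no fold is given for them. *Rgs16*, a gene induced by inflammatory signals in many cells (plus strand of chromosome 1, 153740349 to 153745468), had 1, 3 and 4 reads with vehicle and 4, 2 and 3 with corticosterone. *Rgs14*, known from hippocampal neurons (plus strand of chromosome 13, 55369732 to 55384687), had 1, 1 and 0 reads with vehicle and 0, 2 and 0 with corticosterone. No difference of either gene was detected from so few reads, which does not show that the genes were unchanged.

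**Figure D3:**
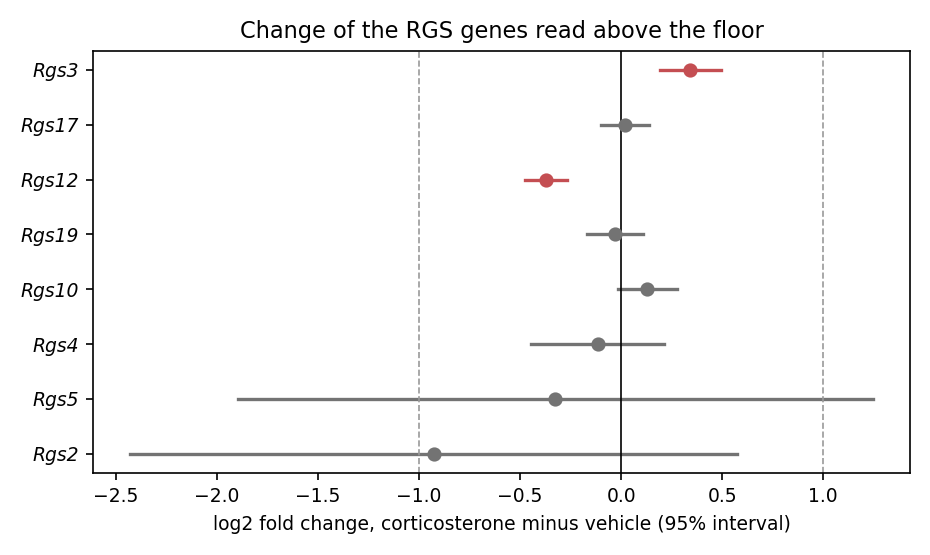
Log2 fold change (corticosterone against vehicle, limma) of the 8 RGS genes that averaged over 3 reads per library, with lines for the 95% interval, red for an adjusted p under 0.05 and dashed lines at -1 and 1. Only the intervals of *Rgs3* (0.19 to 0.49) and *Rgs12* (-0.47 to -0.27) lie to one side of 0, and those of *Rgs2* and *Rgs5* are the widest.

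Levels were compared between members only per kb of merged exons. These cover all annotated splice forms, and the forms in use were not resolved, so the order and the shares are approximate. With vehicle, *Rgs10* (390 ± 10.4 normalized counts per kb, SD, n = 3) and *Rgs19* (372 ± 31.1) were highest and overlapped each other. *Rgs17* (208 ± 13.5) and *Rgs12* (205 ± 6.88) came next and overlapped too. *Rgs3* followed with 144 ± 19.1 and *Rgs4* with 53.6 ± 12.8, and neither overlapped its neighbours. *Rgs5* (2.47 ± 1.48), *Rgs2* (2.33 ± 1.14) and *Rgs16* (1.04 ± 0.712) could not be ordered, since each overlapped the next. *Rgs14* had the lowest mean (0.124 ± 0.108). Both it and *Rgs16* averaged at most 3 reads per library, so their order is not firm. After corticosterone, *Rgs3* (181 ± 5.01 per kb) stood above *Rgs12* (159 ± 2.23), the reverse of their vehicle order. The summed level of the 10 members was 1357 to 1410 per kb with vehicle and 1380 to 1422 with corticosterone, so that the groups overlapped. Within this sum, the share of *Rgs12* went from 14.9% ± 0.574 to 11.4% ± 0.241 and that of *Rgs3* from 10.4% ± 1.45 to 13.0% ± 0.346 (SD, n = 3).

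The genes whose levels followed the called members most closely over the 6 libraries were found among 11479 genes with a mean of at least 50. For *Rgs3* they were *Srcin1*, *Mturn* and *Fgl2*, with a Pearson r of 0.994, 0.993 and 0.993, and 109 genes exceeded 0.95. For *Rgs12* they included *Cdc42ep3* and *Irx5*, each with an r of 0.998, and 713 genes exceeded 0.95. The r values span both treatments, and every corticosterone library was the shallower, so they are given as a description only.

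Of 13 other listed RGS genes, 4 were in the table and 0 were called by limma, edgeR or DESeq2, with 0 at an unadjusted p under 0.05. *Rgs11*, an R7 member that pairs with Gβ5, had 649, 777 and 623 normalized counts with vehicle and 641, 646 and 574 with corticosterone (limma adjusted p = 0.34). *Rgs20*, the third RZ gene, had 115, 94.9 and 95.2 with vehicle and 74.9, 70.7 and 101 with corticosterone (limma adjusted p = 0.25). *Rgs8* (15.5 ± 3.60 against 11.4 ± 6.72, SD, n = 3) and the R7 membrane anchor *Rgs9bp* (33.7 ± 7.11 against 33.8 ± 12.7) overlapped between groups as well.

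Proteins of other families also carry an RGS domain. Of 14 such genes, 2 rose and 3 fell, with a median log2 fold change of -0.07. A mean of at least 100 was reached by 13 of them, so the 5 of 14 called stand against 32.6% of all genes at that level. *Axin2*, a scaffold of β-catenin destruction and a Wnt target gene, had 595, 644 and 704 normalized counts with vehicle and 333, 345 and 431 with corticosterone, a fall of -0.82 on the log2 scale (limma adjusted p = 8.0e-06). The receptor kinase *Grk3* fell from 569 ± 43.4 to 385 ± 39.4 (log2 fold change -0.57) and *Arhgef11* from 1195 ± 36.1 to 1059 ± 33.5 (-0.17). The receptor kinases *Grk5* (0.18) and *Grk6* (0.15) rose, but both calls were lost with upper-quartile scaling (limma adjusted p = 0.29 and 0.36).

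Among the G alpha subunits, which include the substrates of the RGS domain, 1 of 13 genes rose and 2 fell (median log2 fold change -0.12). Of the 13, 8 had a mean of at least 100, where 32.6% of all genes were called. *Gnao1*, which encodes Go alpha, had 2234, 2196 and 2241 normalized counts with vehicle and 2958, 3037 and 3068 with corticosterone, a rise of 0.44 on the log2 scale (limma adjusted p = 9.5e-07). *Gnai2* fell from 7365 ± 224 to 6018 ± 140 (-0.29, limma adjusted p = 4.9e-05) and *Gnai3* from 3315 ± 20.6 to 2961 ± 58.4 (-0.16, limma adjusted p = 0.0097). All 3 encode Gi-class subunits, on which RGS3 and RGS12 act. *Gnaq*, the substrate RGS2 prefers, had a log2 fold change of -0.06 (limma adjusted p = 0.46).

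Of 15 listed G beta and gamma genes, 14 were in the table, of which 1 rose and 2 fell (median -0.17). A mean of at least 100 was reached by 7 of the 14, the level at which 32.6% of all genes were called. *Gnb4* rose from 471 ± 42.5 to 764 ± 22.6 (log2 fold change 0.70, limma adjusted p = 2.0e-06) and *Gnb1* fell from 3603 ± 85.0 to 3058 ± 98.0 (-0.24). *Gng2* had 19.5, 38.6 and 35.2 normalized counts with vehicle and 11.8, 8.84 and 16.6 with corticosterone, a fall of -1.30 on the log2 scale (limma adjusted p = 0.030). In the thinned libraries its log2 fold change was -1.39 and the call was lost (limma adjusted p = 0.072). Among other regulators of G alpha and the arrestins, 2 of 7 rose and 1 fell, and 6 of the 7 had a mean of at least 100. β-arrestin 1 (*Arrb1*), which uncouples receptors from G proteins, rose from 144 ± 10.7 to 276 ± 40.3 (log2 fold change 0.93). The GoLoco gene *Gpsm2* fell from 999 ± 92.8 to 636 ± 11.7 (-0.65), while *Gpsm1* rose by 0.25, a call lost with upper-quartile scaling (limma adjusted p = 0.054).

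Downstream of the G proteins, 13 of 16 listed effector genes were in the table, of which 5 rose and 2 fell (median 0.16). Of the 13, 11 had a mean of at least 100, where 32.6% of all genes were called. Of the 4 phospholipase C beta genes, 1 rose, 1 fell and 2 were not called. *Plcb2* had 82.7, 67.1 and 48.6 normalized counts with vehicle and 216, 190 and 193 with corticosterone, a rise of 1.62 on the log2 scale (limma adjusted p = 2.7e-06). *Plcb1* had 264, 279 and 270 with vehicle and 135, 163 and 128 with corticosterone, a fall of -0.94 (limma adjusted p = 9.0e-06). *Plcb3* and *Plcb4*, named here to complete the family, had log2 fold changes of -0.06 each (limma adjusted p = 0.55 and 0.63). The IP3 receptors *Itpr2* (0.48) and *Itpr3* (0.41) rose, and adenylyl cyclase 6 (*Adcy6*) fell (-0.17), the last call being lost in the thinned libraries (limma adjusted p = 0.052).

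Upstream, 26 of 34 listed receptor genes were in the table. Of these, 5 rose and 10 fell, against 8.49% and 8.2% of all genes, with a median log2 fold change of -0.21. Like the other lists, this one was chosen with earlier results of these data known. It holds *Pth1r* and *Ednra*, which the study itself reports as lower, so its shares are a description only. Of the 26, 15 had a mean of at least 100, the level at which 32.6% of all genes were called. The thrombin receptor *F2r* rose from 2718 ± 312 to 5642 ± 207 normalized counts (log2 fold change 1.06, limma adjusted p = 3.4e-09). The prostaglandin E receptor *Ptger4* fell from 41.4 ± 4.50 to 14.1 ± 1.96 (-1.55, limma adjusted p = 0.0014) and the parathyroid hormone receptor *Pth1r* from 1760 ± 197 to 713 ± 65.6 (-1.30, limma adjusted p = 5.2e-09). The study's threshold was passed by 1 receptor that rose and 5 that fell, by 1 effector (*Plcb2*) and by 1 gamma gene (*Gng2*).

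**Figure D4:**
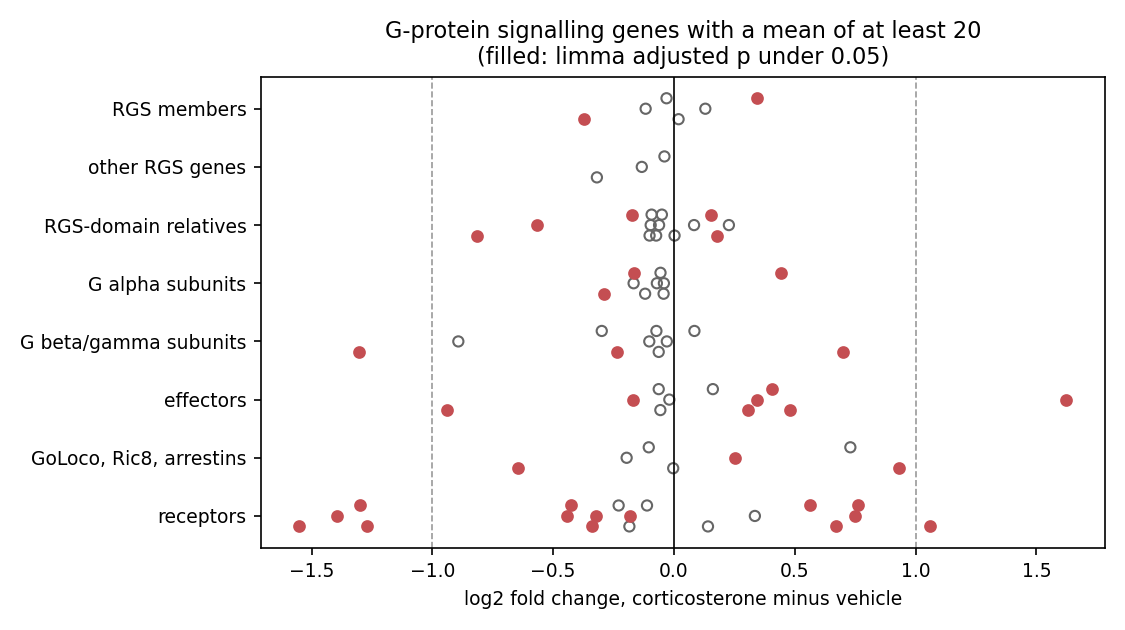
Log2 fold change (corticosterone against vehicle) of the 79 genes of the RGS and G-protein lists with a mean of at least 20 normalized counts, 1 point per gene and 1 line per list, spread vertically for legibility only; filled points have a limma adjusted p under 0.05 and dashed lines mark -1 and 1. The filled RGS members are *Rgs12* at -0.37 and *Rgs3* at 0.34, while *Plcb2* lies farthest to the right at 1.62 and *Ptger4* farthest to the left at -1.55.

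All 8 osteoblast markers were in the table at a mean of at least 100. That level was reached by 10558 of the 24016 genes, *Sox9*, *Col2a1*, *Notch3* and *Cspg4* of the lists below included, so it does not by itself mark a cell type. The osteoblast markers moved with the treatment, 7 lower and 1 higher. Of the mural cell markers, which bear on *Rgs5*, 9 of 10 were in the table with a summed level of 21959 to 24823 with vehicle and 26354 to 29984 with corticosterone, most of it *Acta2*. In this list 3 genes rose (*Acta2*, *Tagln* and *Cnn1*), *Cspg4* fell (log2 fold change -0.65), *Notch3* had a mean of 1054 with a log2 fold change of 0.03, and *Myh11* and *Abcc9* had means under 10. Of 8 immune markers, which bear on *Rgs10*, 4 were in the table with sums of 262 to 300.0 and 214 to 241. Most of that sum was *Lyz2*, which fell in limma (log2 fold change -0.37, limma adjusted p = 0.020), whereas DESeq2 called 0 of these immune markers. *Cd68* and *Csf1r* had vehicle means of 31.6 and 22.2, and the T-cell gene *Cd3e* was at 0 in 4 libraries and at 1 read in the others. Endothelial sums were at most 12.8. The 2 adipocyte markers in the table rose in sum from 7.72 to 21.1 up to 108 to 133, nearly all of it *Fabp4*, and the summed level of the 4 chondrocyte markers was 3557 to 3964 with vehicle and 2999 to 3023 with corticosterone, with *Sox9* and *Col2a1* lower, *Col10a1* higher and *Comp* not called. The part of these lists in the values of *Rgs3* and *Rgs12* was not tested.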

How the data were processed

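RNA-seq of 3 vehicle and 3 corticosterone cultures was read from 1 deposited table, in which the authors name the values FPKM. Each deposited value is a non-negative signal equal to a read count over a size factor that is the same for all genes of a library, since its steps gave back whole reads for 100% of values (tolerance 0.05 reads) at any gene length. The submitters' processing notes name mm10, the study names DESeq2, and the aligner and strand setting are not given in the sources used here. The design assumed FPKM and was kept.

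Gene symbols came from GENCODE for 24008 of 24016 IDs. limma 3.58.1 (trend, R 4.3.3) was fitted to log2(value + 0.1) after a filter on a mean of 0.1 or more, which removed none, with Benjamini-Hochberg adjustment over all genes. edgeR 4.0.16 and DESeq2 1.42.0 on recovered reads, other scalings, filters and pseudocounts, thinning, a replicate block and leaving out each library were alternatives. Thinning covers counting error only, while edgeR and DESeq2 estimated the spread between replicate cultures from the recovered reads.

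Members and lists were chosen with earlier results of these data known. Named genes were the members, at most 3 called genes per list and direction with a mean of at least 20, and other RGS genes, besides genes most like the called members, of which 1 is not reported here. Tested on simulated data with an assumed spread, the limma fit recovered nearly all large changes and none of the smaller ones. Of the smaller ones, edgeR and DESeq2 recovered some. The smaller size set there was still larger than the measured log2 fold changes of *Rgs3* and *Rgs12*. Whether the assumed spread matches that of these libraries was not tested.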

Additional observations from a re-analysis of the deposited data

How the results depend on the processing

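*Rgs12* fell in all 6 fits that left out 1 library (log2 fold change -0.39 to -0.35, limma adjusted p up to 0.0021) and in all 15 other alternatives (adjusted p up to 0.031, that value from limma without a variance trend). *Rgs3* ranged from 0.28 to 0.45 without 1 library each and kept its call in 4 of these 6 and in 14 of 15 others. Without the variance trend it was 0.34 with a limma adjusted p of 0.19, so that 0 members were higher, and 873 genes were higher and 760 lower, against 2040 and 1970. Upper-quartile scaling gave 1349 higher genes and turned *Rgs17* to -0.049, and edgeR turned *Rgs5* to 0.0065. DESeq2 with the replicate block gave 1254 lower genes and 198 lower past the threshold. Leaving out 1 library each gave 1148 to 1611 lower genes, 204 to 321 lower past the threshold and 0 to 1 higher members. Over the same 6 fits the log2 fold change was -0.025 to 0.068 for *Rgs17*, -0.10 to 0.0076 for *Rgs19*, -0.30 to 0.049 for *Rgs4*, -1.01 to 0.59 for *Rgs5*, 0.059 to 0.18 for *Rgs10* and -1.40 to -0.59 for *Rgs2*. The cause of these shifts was not tested. Replicate numbers are shared by the groups without a stated pairing, and deviations of same-numbered libraries correlated at -0.044, 0.0014 and 0.023 over 13880 genes. The limma fit with the replicate block called 2012 genes higher and 1893 lower and kept both member calls (*Rgs3*: 0.34, limma adjusted p = 0.0047). *Rgs2* has no value under a mean of at least 10 or under edgeR's filter.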
